A study of Mus musculus with 20 samples.

Results

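Hnf4a, Foxa1, Foxa2, Foxa3, Cebpa, Cebpb, Onecut1, Prox1 and Nr5a2 encode transcription factors that set or keep the identity of the hepatocyte, the main cell of the liver. Their chromatin was read from lists of ChIP-seq peaks, the places where DNA carrying a histone mark is enriched over input DNA. An interval of the authors' consensus list for a mark was taken as belonging to a gene when its midpoint lay in the gene body or within 20 kb of it (mm10, gene bodies from RefSeq). By this rule the 9 genes held 114 of 65776 H3K27ac intervals, 185 of 103014 H3K4me1 intervals and 147 of 46568 H3K9ac intervals. The value of an interval in a library is its fold, the authors' enrichment over input of the highest peak that overlaps it, and a library with no overlapping peak has no call there.

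The livers came from 9-week-old male C57BL/6 mice on chow, fasted for 24 hours. Wild type (WT) was compared with a liver knockout of Cpt2 (Cpt2 L-/-, called Cpt2 KO), a knockout of Ppara (Ppara -/-, called Ppara KO) and the double knockout (Cpt2 L-/- ; Ppara -/-, called DKO), in which the labels give the Ppara deletion as whole-body. H3K27ac and H3K4me1 were profiled in 2 livers of each genotype and H3K9ac in 1 WT and 1 Cpt2 KO liver. Cpt2 KO and DKO are called Cpt2-null and the others Cpt2-intact, and Ppara KO and DKO are called Ppara-null and the others Ppara-intact. The driver of the Cpt2 deletion is not given in the sources used here. The peak names of both marks hold the same number for each genotype and replicate, and the labels do not say what it stands for. If it names the animal, both marks were read in the same 8 livers and are not independent. These numbers form a series of 6833 to 6848 where Ppara is deleted and of 9548 to 9589 elsewhere. Whatever the series stands for, it and the Ppara state cannot be told apart.

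Hepatocytes are specified and maintained by a small set of factors that bind each other's regulatory regions. FOXA proteins open closed chromatin, HNF4A and NR5A2 are nuclear receptors that drive metabolic genes, C/EBP proteins are basic leucine zipper factors, and ONECUT1 and PROX1 are homeodomain proteins that act early in liver development. H3K27ac marks active promoters and enhancers, H3K4me1 marks enhancers and is usually low at an active start, and H3K9ac marks active starts. The study's series asks how Ppara, a receptor for fatty acids, and fatty acid oxidation, which needs Cpt2, shape transcription in the liver.

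The starts on which the results turn are shown by the 250 bases before each, 5′ to 3′, from RefSeq on GRCm38.p6, the assembly that mm10 names. Capitals mark letters searched on both strands. These were ATTGAT of Onecut factors, TGTTTAC of forkhead factors, TTGCGCAA of C/EBP factors, the box CCAAT of general promoters, the TATA box as TATAAA, and the E-box as CACGTG. Both Hnf4a starts are shown because H3K27ac told them apart. The upstream, P2, start is at chr2:163506607-163506856 (plus strand), and the downstream, P1, start at chr2:163546905-163547154 (plus strand). The outermost of the 3 Foxa2 starts is at chr2:148046970-148047219 (minus strand), the Cebpa start at chr7:35119043-35119292 (plus strand) and the Onecut1 start at chr9:74861671-74861920 (plus strand). The last 3 are examples of starts whose H3K27ac interval was lower in DKO than in WT; both Prox1 starts, not shown, lie in such an interval too.
Hnf4a P2: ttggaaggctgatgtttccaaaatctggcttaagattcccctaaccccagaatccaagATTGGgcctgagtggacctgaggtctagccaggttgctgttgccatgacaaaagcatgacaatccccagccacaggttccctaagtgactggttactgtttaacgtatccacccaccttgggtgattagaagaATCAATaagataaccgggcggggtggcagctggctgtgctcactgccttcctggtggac
Hnf4a P1: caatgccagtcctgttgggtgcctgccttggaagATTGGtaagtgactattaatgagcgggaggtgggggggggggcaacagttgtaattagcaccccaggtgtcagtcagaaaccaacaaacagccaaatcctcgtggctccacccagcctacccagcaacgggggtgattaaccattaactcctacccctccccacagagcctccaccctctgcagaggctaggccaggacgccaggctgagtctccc
Foxa2: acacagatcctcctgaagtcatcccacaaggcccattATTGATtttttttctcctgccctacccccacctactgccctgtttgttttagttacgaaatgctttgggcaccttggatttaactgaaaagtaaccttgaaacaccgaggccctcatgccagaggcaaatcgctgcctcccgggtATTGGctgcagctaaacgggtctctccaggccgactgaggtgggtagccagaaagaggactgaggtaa
Cebpa: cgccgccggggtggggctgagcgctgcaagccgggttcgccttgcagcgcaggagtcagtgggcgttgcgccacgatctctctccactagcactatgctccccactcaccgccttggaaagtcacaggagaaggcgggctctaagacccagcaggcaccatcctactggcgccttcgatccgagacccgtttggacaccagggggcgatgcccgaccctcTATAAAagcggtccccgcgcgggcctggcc
Onecut1: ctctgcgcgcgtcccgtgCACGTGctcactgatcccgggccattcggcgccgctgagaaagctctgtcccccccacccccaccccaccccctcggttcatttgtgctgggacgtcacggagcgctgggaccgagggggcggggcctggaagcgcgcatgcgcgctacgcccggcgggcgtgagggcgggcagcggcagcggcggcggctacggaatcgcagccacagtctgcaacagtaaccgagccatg

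In these windows ATTGAT or its reverse stood before Hnf4a P2 and Foxa2, where 6.72% of 32851 RefSeq promoter windows of this length hold it. TATAAA stood 30 to 25 bases before the Cebpa start (12.4% of windows), and CACGTG 232 bases before the Onecut1 start (6.02% of windows). CCAAT in reverse stood before both Hnf4a starts and Foxa2 (33.8% of windows). No marked match overlapped another. TGTTTAC (3.17% of windows) stood before Foxa1 alone among the 14 starts of the 9 genes, and TTGCGCAA (0.164% of windows) before none of them. GC content and CG pairs differed between these windows: 51.2% with 3 CG pairs for Hnf4a P2, 57.6% with 4 for Hnf4a P1, 50.8% with 6 for Foxa2, 66.4% with 22 for Cebpa and 71.6% with 31 for Onecut1, against medians of 52.4% and 6 over all windows.

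Most starts carried H3K27ac in every genotype. Within 500 bases of a start, an H3K27ac peak was called in all 8 libraries at 12 of 14 starts. The 2 exceptions were Hnf4a P2, with a fold of 5.30 in WT replicate 1 and no call in the other libraries, and the inner Nr5a2 start at 136953630, with a fold of 5.67 in 1 library. At Hnf4a P1, by contrast, folds were 32.0 and 22.7 (WT), 21.6 and 26.5 (Cpt2 KO), 26.8 and 32.6 (Ppara KO) and 33.3 and 34.8 (DKO). H3K4me1 was called in all 8 libraries at 4 starts: Hnf4a P2, the inner Nr5a2 start, Hnf4a P1 and the outermost Foxa2 start. Calls of H3K4me1 thus did not tell P2 from P1. Its folds were 6.29 to 9.08 near P1 and 8.43 to 11.9 near the Foxa2 start. Its folds near P2 were 9.52 and 8.62 (WT), 9.92 and 5.50 (Cpt2 KO), 9.23 and 9.49 (Ppara KO) and 12 and 10.9 (DKO), with both DKO livers above the other 6, which overlapped. Of the 14 starts, 6 had no H3K4me1 call in any library: those of Foxa1, Cebpa and Cebpb, both of Prox1 and the middle one of Foxa2. H3K9ac was called within 500 bases of all 14 starts in the WT library and of 13 in the Cpt2 KO library, and the start without it was Hnf4a P2.

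**Figure D1:**
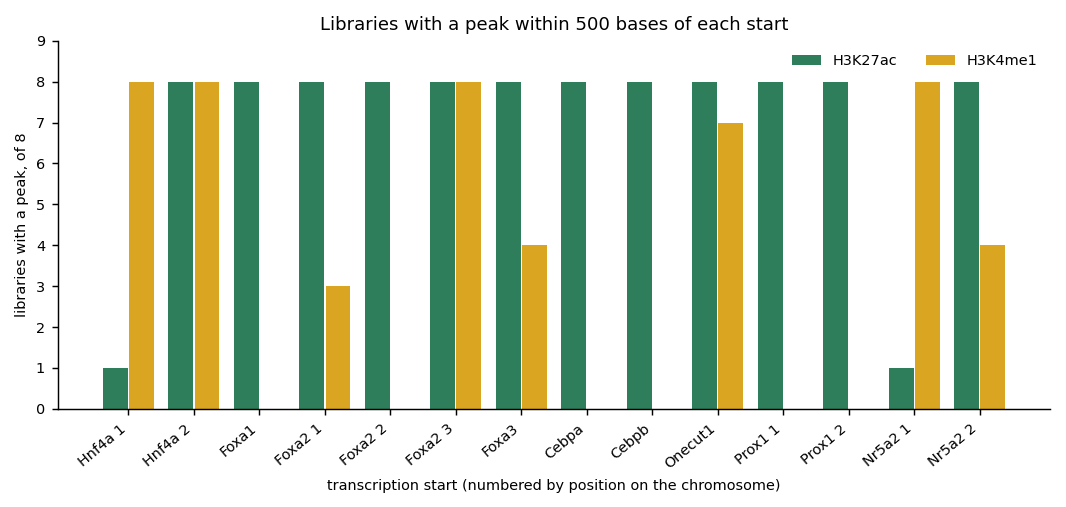
Number of libraries (vertical axis, of 8) with a peak within 500 bases of each of the 14 starts (horizontal axis), for H3K27ac (green) and H3K4me1 (gold). H3K27ac reached 8 libraries at 12 starts and H3K4me1 at 4. Those 4 include both starts with 1 H3K27ac library, the first Hnf4a and the first Nr5a2 start in order of position.

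Some properties of the libraries bear on what follows. Lists held 44454 to 48929 H3K27ac peaks and 61189 to 72151 H3K4me1 peaks, and depth in reads is unknown. In H3K27ac the median fold was 7.42 to 8.21 in Cpt2-null and 6.69 to 7.17 in Cpt2-intact livers, and the smallest peak width was 217 to 223 bases against 198 to 210. Total covered length was 42.0 to 44.9 Mb against 44.8 to 47.8 Mb. Folds were therefore centred on each library's median before testing; without centring the median difference of all H3K27ac intervals was 0.25 (log2) for Cpt2-null minus Cpt2-intact livers and 0.26 for DKO minus WT, so every difference below is relative to that shift. Some markers of other liver cells moved with the Cpt2 state too. H3K27ac covered 12035 to 23699 bases near 3 Kupffer cell genes (Clec4f, Adgre1, Cd5l) in Cpt2-null livers and 807 to 7679 in Cpt2-intact livers, 952 to 3865 against 0 to 338 near Ptprc of white blood cells, and 1895 to 4011 against 300 to 903 near 3 stellate cell genes (Reln, Lrat, Des). Taken singly, Clec4f, Adgre1 and Reln were higher without overlap, while Cd5l, Lrat and Des overlapped between the Cpt2 states. Near 6 hepatocyte genes (Alb, Ttr, Apoa1, Apob, Cps1, Fgb) H3K27ac covered 68868 to 81059 against 82226 to 101272 bases. Of these, Ttr, Apoa1 and Fgb were lower without overlap, while Alb, Apob and Cps1 overlapped. Near 3 sinusoidal endothelial genes the ranges overlapped (35411 to 40081 against 17931 to 38491). Of 4 cholangiocyte genes Krt19 and Krt7 had none in any library and the sum over the 4 overlapped (0 to 2360 against 854 to 1748). In whole liver fewer hepatocytes and less mark per hepatocyte cannot be told apart.

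Among the nuclear receptors, Hnf4a kept its strongest H3K27ac interval, between its starts (chromosome 2, 163532112 to 163543630), at folds of 28.6 and 27.8 (WT), 24.7 and 37.3 (Cpt2 KO), 23.5 and 25.1 (Ppara KO) and 42.0 and 47.8 (DKO). The DKO livers were the highest and did not overlap the others, but no contrast passed: the difference of DKO from WT was 0.37 (log2, SE 0.21, limma adjusted p = 0.219). Without centring it was 0.67 with an adjusted p of 0.0388 in limma. For Nr5a2 the strongest interval lay in the gene body (chromosome 1, 136945381 to 136950146), with folds of 30.1 and 31.7 (WT), 23.9 and 21.7 (Cpt2 KO), 16.3 and 22.0 (Ppara KO) and 21.6 and 22.0 (DKO). Here both WT livers lay above the other 6. The receptors differed in order, with DKO at the top for Hnf4a and WT at the top for Nr5a2.

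The forkhead genes differed among themselves. The strongest Foxa1 interval, beyond its 3′ end (chromosome 12, 57536131 to 57540559), had folds of 30.6 and 26.7 (WT), 22.2 and 19.0 (Cpt2 KO), 20.7 and 21.3 (Ppara KO) and 20 and 24.0 (DKO). The strongest of Foxa2 spans the gene and its starts (chromosome 2, 148042986 to 148048023), with folds of 27.6 and 33.4 (WT), 22.5 and 23.8 (Cpt2 KO), 24.9 and 28.6 (Ppara KO) and 17.4 and 20.7 (DKO). All 4 Cpt2-null livers lay below all 4 Cpt2-intact livers, before any centring. Foxa3 varied within genotypes: its strongest interval (chromosome 7, 19006523 to 19019145) had folds of 20.7 and 23.3 (WT), 24.4 and 22.5 (Cpt2 KO), 23.5 and 16 (Ppara KO) and 15.7 and 33.6 (DKO), and the DKO livers alone spanned the whole range.

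Of the C/EBP genes, Cebpa had its strongest interval across the gene and its start (chromosome 7, 35115906 to 35125046), with folds of 33.8 and 41.5 (WT), 25.3 and 28.5 (Cpt2 KO), 17.6 and 25.5 (Ppara KO) and 17.4 and 22.4 (DKO). WT livers were the highest and did not overlap any other genotype. Cebpb, which encodes a C/EBP factor of the fasting and acute phase response, varied more within genotypes, with folds across its gene (chromosome 2, 167685398 to 167697218) of 23.6 and 28.7 (WT), 18.2 and 11.7 (Cpt2 KO), 21.4 and 15.7 (Ppara KO) and 18.7 and 31.6 (DKO). No contrast passed there, and its interaction of 1.16 (log2, SE 0.36) had an adjusted p of 0.177 in limma.

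The homeodomain genes differed in level. The strongest Onecut1 interval holds its start (chromosome 9, 74861807 to 74867325) and had folds of 11.9 and 19.5 (WT), 4.29 and 8.36 (Cpt2 KO), 5.06 and 8.77 (Ppara KO) and 4.86 and 7.74 (DKO). Both WT livers lay above the 6 knockout livers, which overlapped one another. A smaller interval just before it (74861201 to 74861729) did not follow that order: it had no call in WT replicate 1 and folds of 9.58 (WT replicate 2), 7.07 and 6.92 (Cpt2 KO), 5.97 and 7.95 (Ppara KO) and 8.96 and 15 (DKO). The strongest Prox1 interval, which holds both starts of that gene and reaches upstream (chromosome 1, 190168168 to 190177641), had folds of 27.3 and 31.0 (WT), 21.5 and 28.4 (Cpt2 KO), 24.8 and 27.4 (Ppara KO) and 21.2 and 23.2 (DKO). By the mean fold over 8 libraries the order ran Hnf4a 32.1, Cebpa 26.5, Prox1 25.6, Foxa2 24.9, Nr5a2 23.7, Foxa1 23.1, Foxa3 22.5, Cebpb 21.2 and Onecut1 8.81. The ranges over libraries of the first 8 overlapped from each to its neighbour, and that of Onecut1 (4.29 to 19.5) overlapped that of Cebpb (11.7 to 31.6) through the WT livers.

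**Figure D2:**
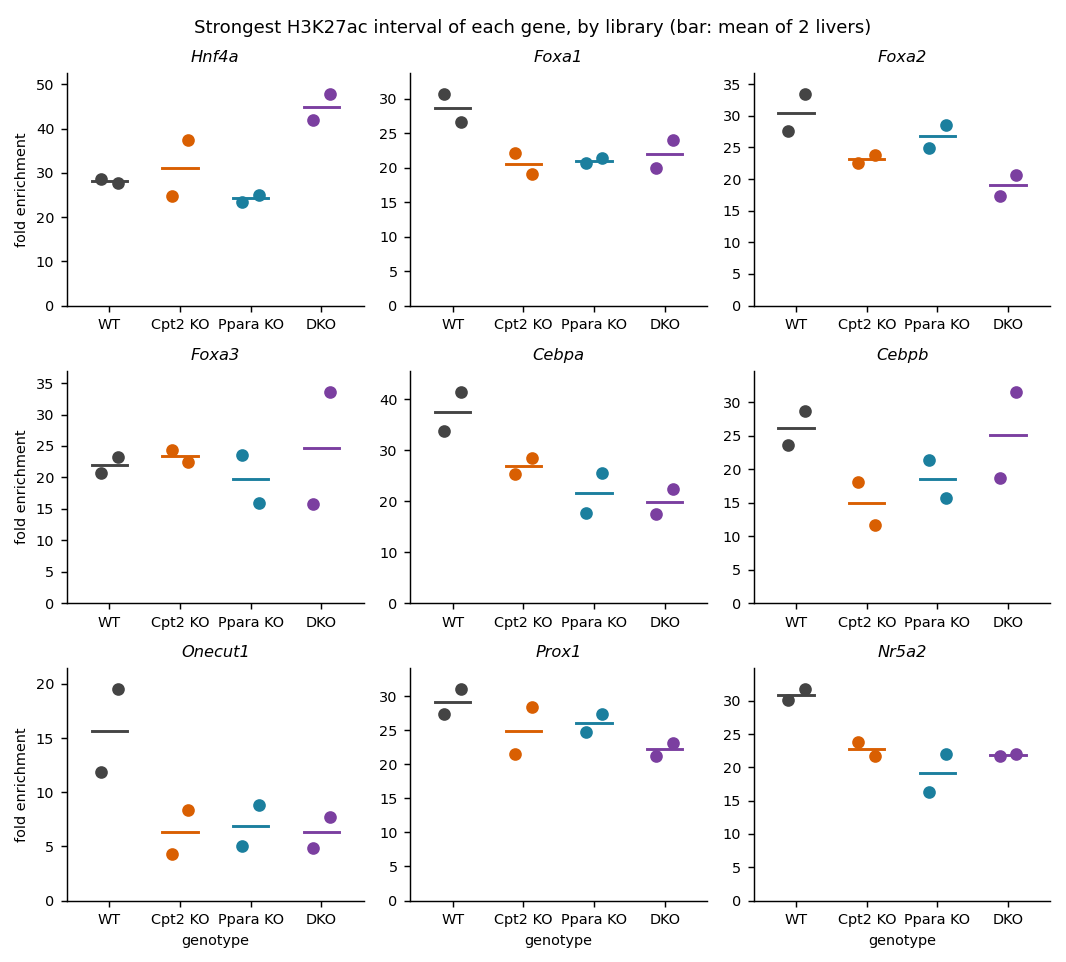
H3K27ac fold over input (vertical axis, from 0) at the strongest interval of each gene, by genotype (horizontal axis), with 1 point per liver and a bar at the mean of 2. WT is highest at Cebpa, Onecut1, Nr5a2 and Foxa1 without overlap, DKO is highest at Hnf4a, and the 4 Cpt2-null points lie below the others at Foxa2.

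H3K27ac near these genes was lower in Cpt2-null livers after centring. Of the 38 intervals called in all 8 libraries, 10 were lower and 0 higher at a limma adjusted p under 0.05, where 7.38% of all 18281 tested intervals were lower and 4.9% higher. The median difference over the 38 was −0.39 (log2) against −0.01 over all tested intervals, and 31 of 38 lay below 0. The 10 were spread over 7 genes: 2 each at Foxa1, Cebpa and Prox1 and 1 each at Hnf4a, Foxa2, Onecut1 and Nr5a2. Foxa3 and Cebpb had none among 4 and 2 intervals tested. The Kupffer cell, white blood cell and stellate cell sums given above were higher in the same livers, and their part in the result was not tested. Scaling mattered: without centring 1 interval was lower (Onecut1) and 4 were higher (2 at Hnf4a, 1 each at Foxa3 and Prox1). Of all 18281 intervals 432 were then lower and 3504 higher. The median without centring was −0.12 over the 38 against 0.25 over all. Quantile normalization gave 8 lower and 0 higher, where 1116 of all were lower and 1016 higher. With smallest peak width as a covariate 0 passed, 4 at an unadjusted p under 0.05. Of all 18281 intervals 0 passed in that fit as well, 1426 at an unadjusted p under 0.05. This width did not overlap between the Cpt2 states, so the fit can hardly tell width from Cpt2 state and decides little about these genes. Leaving out 1 library left fewer calls: 1 without Cpt2 KO replicate 1 (Foxa2), 3 without Ppara KO replicate 2 or DKO replicate 1, 4 without Ppara KO replicate 1 or DKO replicate 2, 6 without WT replicate 2 or Cpt2 KO replicate 2, and 7 without WT replicate 1.

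The Foxa2 interval over the gene and its starts fell by 0.71 (log2, SE 0.12, limma adjusted p = 0.00586) in Cpt2-null livers. It was the 1 call of the 10 whose uncentred folds did not overlap between the states, and it passed in each of the 8 fits without 1 library, but not without centring, with the mean fold of the overlapping peaks or with the width covariate. The interval at the Onecut1 start fell by 1.00, the most of the 10 (SE 0.26, adjusted p = 0.0275), followed by a Prox1 interval in the gene body (190135526 to 190136672) and the Cebpa interval beyond the gene (35125953 to 35137382), both of which fell by 0.85 (SE 0.22 and 0.24, adjusted p = 0.0263 and 0.0349). At that Prox1 interval folds were 8.0 and 6.0 (WT), 3.86 and 4.57 (Cpt2 KO), 10.2 and 7.33 (Ppara KO) and 5.34 and 7.50 (DKO), so the states overlapped before centring. At the Cebpa interval folds were 10.1 and 24.1 (WT), 13.2 and 10.4 (Cpt2 KO), 24.8 and 15.3 (Ppara KO) and 10.2 and 13.3 (DKO), with 1 WT liver among the lowest. With the width covariate the sign of that difference turned, and with the mean fold the call was lost. The interval over Cebpa and its start fell by 0.56 (SE 0.13, adjusted p = 0.0206).

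At Foxa1 the interval in the gene body (57540659 to 57544125) fell by 0.67 (SE 0.17, limma adjusted p = 0.0274) and that beyond the 3′ end fell by 0.47 (SE 0.13, adjusted p = 0.0352). The latter turned to a difference of 0.35 with the mean in place of the highest fold of the overlapping peaks. Folds in the gene body were 10.2 and 13.6 (WT), 8.72 and 8.36 (Cpt2 KO), 7.75 and 9.0 (Ppara KO) and 6.42 and 6.81 (DKO). The interval in the Hnf4a gene body past P1 (163556558 to 163557926) fell by 0.78 (SE 0.21, adjusted p = 0.0305), from 7.57 and 11.6 in WT to 4.0 and 5.25 in Cpt2 KO, while Ppara KO (9.43 and 9.0) and DKO (10.4 and 8.29) overlapped. With the width covariate its sign turned. The Prox1 start interval fell by 0.50 (SE 0.14, adjusted p = 0.0305). This call and that beyond the 3′ end of Foxa1 were lost with quantile normalization and with the mean fold. An Nr5a2 interval beside the upstream start (136958662 to 136959735) fell by 0.50 (SE 0.15, adjusted p = 0.0406). Folds there were 17.5 and 18.2 (WT), 15.9 and 12.8 (Cpt2 KO), 16.6 and 20.5 (Ppara KO) and 16.7 and 16.7 (DKO). The Nr5a2 call was lost in 7 of the 8 fits without 1 library.

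**Figure D3:**
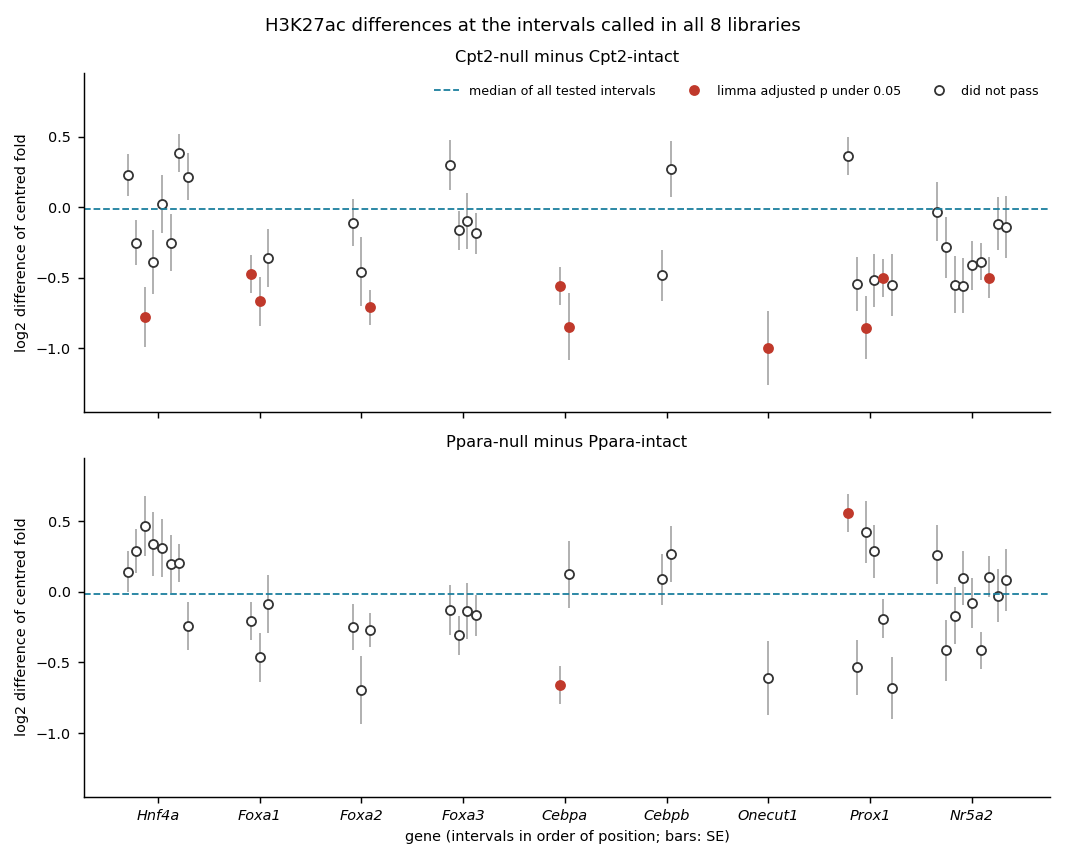
Log2 difference of centred H3K27ac fold (vertical axes, bars ± SE) at the 38 intervals called in all 8 libraries, grouped by gene (horizontal axis), for Cpt2 (upper) and Ppara (lower). Filled points passed limma's adjusted p of 0.05 and the dashed line is the median of all 18281 intervals. For Cpt2, 31 points lie below 0 and 10 are filled; for Ppara, 2 are filled, 1 on each side.

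Against Ppara-intact livers, Ppara-null livers differed at 1 lower and 1 higher interval of the 38, near the background of 4.15% lower and 3.19% higher. The lower was the interval over Cebpa and its start, which fell by 0.66 (log2, SE 0.13, limma adjusted p = 0.0108), and it was lost without Cpt2 KO replicate 2 and with the mean fold. Folds of the Ppara-intact (25.3 to 41.5) and Ppara-null livers (17.4 to 25.5) met at 1 Ppara KO liver. The higher was a Prox1 interval beyond the 3′ end of the gene (190105374 to 190112259), by 0.56 (SE 0.14, adjusted p = 0.025). Its folds were 12 and 12.8 (WT), 22.9 and 21.6 (Cpt2 KO), 18.5 and 25.3 (Ppara KO) and 26.1 and 31.8 (DKO), so both WT livers lay below the other 6. This call was lost in 9 of 16 alternatives, 6 of them fits without 1 library. The median over the 38 was −0.08 against −0.01 over all intervals, and 11 had an unadjusted p under 0.05, as did 4226 of all 18281.

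DKO differed from WT at more of these intervals: 10 of 38 were lower and 2 higher, where 11.5% of all tested intervals were lower and 8.62% higher. The median was −0.39 against −0.04. At all 12 the uncentred folds of the 2 genotypes did not overlap, but the calls were made on these same folds, so this adds no support. The interval over Cebpa and its start fell by 1.22 (log2, SE 0.19, limma adjusted p = 0.00199) and that over Foxa2 fell by 0.98 (SE 0.17, adjusted p = 0.0031), and each passed in 15 of 16 alternatives, all but the width covariate. The Onecut1 start interval fell by 1.61 (SE 0.37, adjusted p = 0.0105). A second Foxa2 interval beyond the gene (148037605 to 148041100) fell by 1.15 (SE 0.34, adjusted p = 0.0321). Its folds were 30.2 and 30.2 in WT, 16.8 and 16.6 in DKO, 18.1 and 20.7 in Cpt2 KO and 8.0 and 24.1 in Ppara KO. The call was lost without centring and with quantile normalization. The Foxa1 interval in the gene body fell by 1.13 (SE 0.25, adjusted p = 0.00833) and that beyond it fell by 0.68 (SE 0.19, adjusted p = 0.0238), the latter turning to a difference of 0.24 with the mean fold. At Nr5a2 the strongest interval fell by 0.80 (SE 0.18, adjusted p = 0.01).

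Prox1 had calls in both directions. In DKO against WT the start interval fell by 0.69 (SE 0.19, limma adjusted p = 0.0237) and an interval further upstream (190178373 to 190181268) fell by 1.24 (SE 0.31, adjusted p = 0.0153). The call at the start interval was lost without centring, with quantile normalization and with the mean fold. An interval in the gene body (190126570 to 190133801) fell by 1.08 (SE 0.27, adjusted p = 0.0162). The interval beyond the 3′ end rose by 0.92 (SE 0.19, adjusted p = 0.00662). Folds upstream were 12.3 and 13.3 (WT), 8.41 and 11.2 (Cpt2 KO), 6.0 and 9.41 (Ppara KO) and 7.89 and 5.64 (DKO). In the gene body they were 17.4 and 16.6 (WT), 14.5 and 17.5 (Cpt2 KO), 13.3 and 14.0 (Ppara KO) and 12 and 8.12 (DKO). The second higher call was a Hnf4a interval beyond its 3′ end (163573211 to 163578016), by 0.59 (SE 0.19, adjusted p = 0.0448), with folds of 12.4 and 15.1 (WT), 21.1 and 20.4 (Cpt2 KO), 14.8 and 16.4 (Ppara KO) and 22.8 and 28.1 (DKO). It was lost in each of the 8 fits without 1 library. The count of 12 was 9 without centring (4 higher, 5 lower), 7 without WT replicate 1 or DKO replicate 1, 3 without DKO replicate 2 (Cebpa, Foxa2 and Onecut1) and 0 with the width covariate, where 9 had an unadjusted p under 0.05. Of all 18281 intervals, 3155 were higher and 860 lower in DKO without centring. With the width covariate 0 of all passed, 1747 at an unadjusted p under 0.05. No interval near these genes passed for the interaction, which compares the Cpt2 effect between the Ppara states. In limma 0 of 38 passed, with 5 at an unadjusted p under 0.05. Of all 18281 intervals 0.00547% passed and 2771 had such an unadjusted p. The comparisons with WT share its 2 livers.

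Presence and absence of H3K27ac calls ran the same way for Cpt2. Of the 114 intervals, 6 were called in all 4 Cpt2-intact livers and in none of the Cpt2-null livers (5.26%, against 0.826% of all H3K27ac intervals), and 1 was called in all 4 Cpt2-null livers and no other (0.877%, against 1.95%). The 6 were 2 at Hnf4a, 2 at Nr5a2 and 1 each at Cebpa and Prox1. Beside the Cebpa gene, at 35125174 to 35125761, folds were 10.0 and 10.9 in WT and 6.56 and 5.23 in Ppara KO. At Hnf4a they were 8.93 and 6.83 in WT and 6.38 and 5.28 in Ppara KO at 163543762 to 163544854, and 5.57 and 4.67 in WT and 5.75 and 4.11 in Ppara KO at 163578273 to 163579343. At Prox1, at 190137265 to 190139163, folds were 9.20 and 5.67 in WT and 6.50 and 5.50 in Ppara KO. The Nr5a2 intervals, at 136913423 to 136914071 and 136955410 to 136956462, had folds of 4.60 to 7.57. The call found in Cpt2-null livers alone lay beyond the Cebpb gene, 11791 bases from its start, at 167700466 to 167700946, with folds of 4.83 and 3.86 in Cpt2 KO and 5.0 and 5.83 in DKO.

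Ppara state separated 1 place in both marks, inside Nr5a2. The H3K27ac interval at 136920091 to 136923086 was called with folds of 8.59 and 7.20 in WT and 9.50 and 9.08 in Cpt2 KO and in no Ppara-null liver. The H3K4me1 interval that overlaps it, at 136920032 to 136921168, had folds of 8.14 and 9.0 in WT and 4.80 and 7.16 in Cpt2 KO and was likewise called in no Ppara-null liver. The midpoint of the H3K27ac interval lies 32041 bases and that of the H3K4me1 interval 33030 bases downstream of the inner start. The counts themselves, 1 of 114 H3K27ac and 1 of 185 H3K4me1 intervals (0.877% and 0.541%), were near the shares over all intervals of 0.725% and 0.604%. No H3K27ac interval of these genes was called in all 4 Ppara-null livers and no Ppara-intact liver (0.632% of all).

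**Figure D4:**
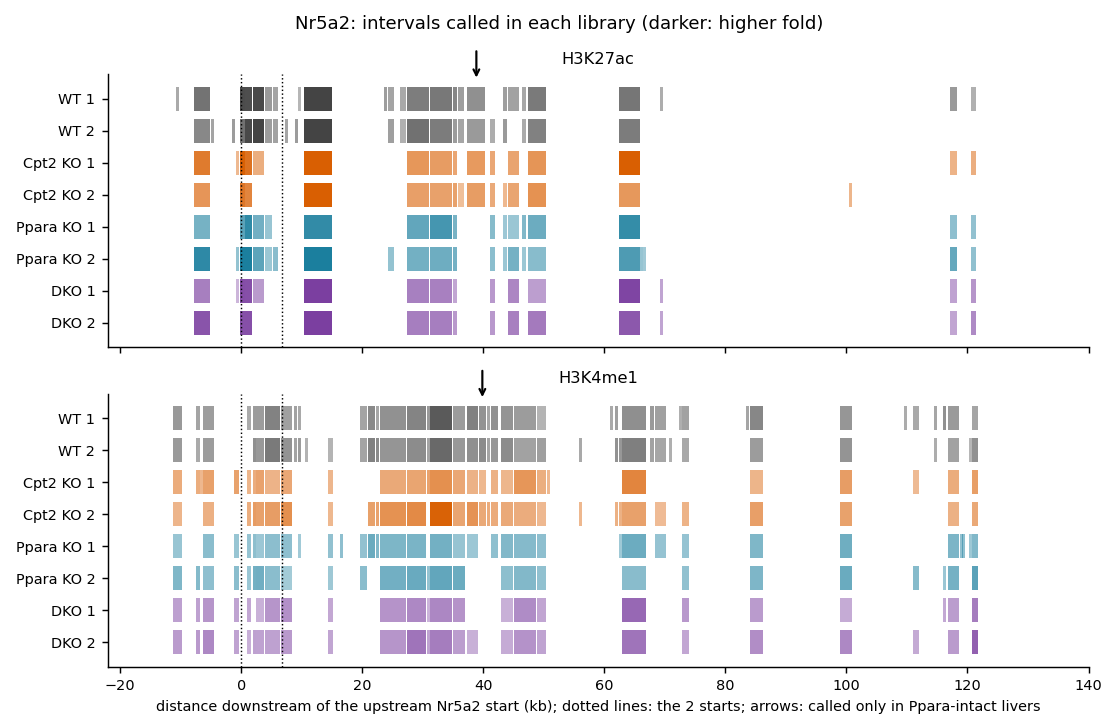
Consensus intervals near Nr5a2 called in each of the 8 libraries (rows, coloured by genotype, darker for a higher fold) along the distance downstream of the upstream start in kb (horizontal axis), for H3K27ac (upper) and H3K4me1 (lower); dotted lines mark the 2 starts. Arrows mark the overlapping intervals called in the 4 Ppara-intact livers and in none of the 4 Ppara-null livers, 32041 and 33030 bases past the inner start.

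WT livers held the most calls near these genes, though not over all intervals. In the WT livers 93 and 77 of the 114 H3K27ac intervals were called (81.6% and 67.5%), against 52.2% and 51.5% of all intervals. Ppara KO livers had calls at 65 and 67 (57.0% and 58.8%, against 51.0% and 48.8% of all). Calls numbered 50 and 51 in Cpt2 KO (43.9% and 44.7%, against 54.5% and 53.8%) and 53 and 55 in DKO (46.5% and 48.2%, against 55% and 59.0%). The Cpt2-null livers thus lay below the share over all intervals and the Cpt2-intact livers above it. Calls made in both WT livers alone numbered 6 (5.26%, against 3.29% of all). The strongest of them lay 12898 bases before the Onecut1 start, at 74848482 to 74849564, with folds of 7.75 and 12.5. Another Onecut1 interval, at 74905775 to 74906804, had folds of 4.72 and 5.52. The others lay at Hnf4a, Foxa3 (within the body of its neighbour Mypop), Cebpb and Nr5a2, with folds of 4.25 to 7.50. None of the 114 was called in both livers of Cpt2 KO, Ppara KO or DKO and in no other (1.83%, 0.441% and 2.26% of all), or in all 6 knockout livers and neither WT (2.59% of all). All livers but the Cpt2 KO had a call at 2 of 114, where 0.365% of all H3K27ac intervals had that set of calls. At Hnf4a (163559928 to 163562875) the folds were 8.41 and 6.33 (WT), 7.85 and 8.59 (Ppara KO) and 5.42 and 4.56 (DKO). At Onecut1 (74908987 to 74909971) they were 7.99 and 5.89 (WT), 7.57 and 4.70 (Ppara KO) and 4.67 and 7.59 (DKO). In H3K4me1, 1 interval at the Foxa3 gene (19020851 to 19022371) was called in all livers but the DKO, with folds of 4.55 to 9.84, where 0.329% of all intervals had that set. In H3K4me1, 8 of 185 intervals were called in both WT livers alone, where 1.85% of all were, among them 2 at Foxa1, 2 at Onecut1 and 3 at Nr5a2. WT replicate 1 stood apart, with 20 intervals called in it alone (17.5%, against 5.04% of all H3K27ac intervals), 8 of them in the Prox1 gene body. In H3K4me1, 18 of 185 were called in that liver alone (9.73% against 3.58%).

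Breadth was a further readout of the same peaks. Bases covered by H3K27ac in the gene body and 20 kb either side did not overlap between the Cpt2 states at 7 of 9 genes, all 7 lower in Cpt2-null livers, where 11.2% of 15401 protein-coding genes with any covered base were lower and 10.7% higher in this way. The 7 were Hnf4a, Foxa1, Foxa2, Foxa3, Cebpa, Prox1 and Nr5a2. Per covered Mb of each library, a scaling added after the total lengths were seen, they were also 7, where 7.9% of genes were lower. At Foxa2 the covered bases were 18322 and 16459 (WT), 9645 and 11619 (Cpt2 KO), 14965 and 13118 (Ppara KO) and 7707 and 8896 (DKO), and the Cpt2-null mean was 60.2% of the Cpt2-intact mean. At Cebpa they were 24363 and 23292 (WT), 14700 and 17434 (Cpt2 KO), 23328 and 20795 (Ppara KO) and 14979 and 15401 (DKO). Breadth at Cebpa separated by Cpt2 state and not by Ppara state, while the fold of its strongest interval passed for both.

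By the mean share of the window covered by H3K27ac, Cebpa (45.2%) and Hnf4a (42.6%) were the highest of the 9. Hnf4a, whose window is longer, had more covered bases than 99.9% of protein-coding genes with any. Covered bases were 51684 and 50382 (WT), 33221 and 40096 (Cpt2 KO), 51518 and 49372 (Ppara KO) and 41878 and 43244 (DKO). The Cpt2-null mean was 78.1% of the Cpt2-intact mean, the highest of the 7 ratios. Prox1 had 37013 and 28204 (WT), 20794 and 25303 (Cpt2 KO), 31890 and 29266 (Ppara KO) and 16963 and 18284 (DKO). Onecut1 overlapped between the Cpt2 states, with Ppara KO low as well: 7353 and 8375 bases (WT), 545 and 1015 (Cpt2 KO), 1500 and 2787 (Ppara KO) and 1390 and 3270 (DKO). Its 2 WT livers lay above all 6 knockout livers by more than the whole spread of the latter. Cebpb overlapped between the Cpt2 states (9729 to 13405 in Cpt2-null and 10646 to 13808 in Cpt2-intact livers). No gene separated by Ppara (5.75% of genes lower, 4.32% higher), and all 9 were lower in DKO than in WT, where 34.9% of genes were lower and 31.9% higher.

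**Figure D5:**
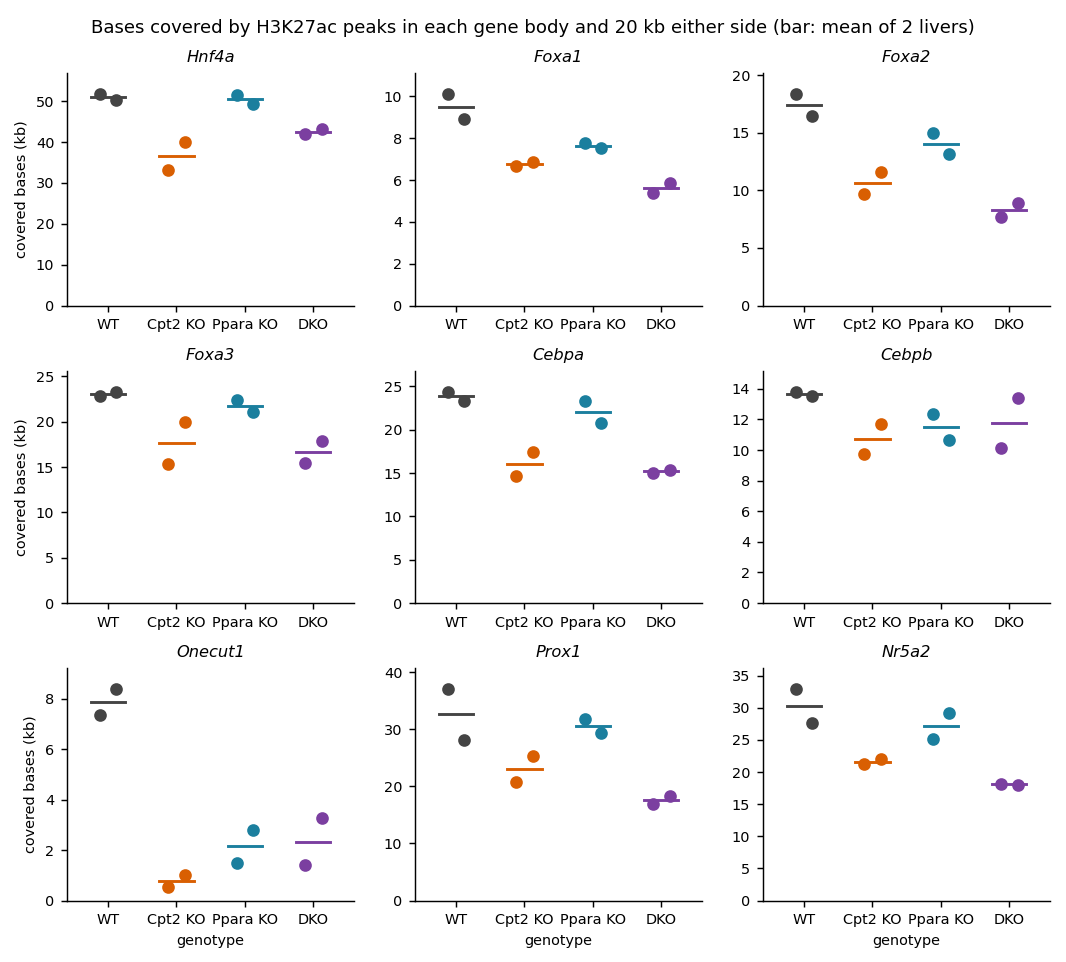
Length covered by H3K27ac peaks, in kb, in each gene body and 20 kb either side (vertical axis, from 0), by genotype (horizontal axis), with 1 point per liver and a bar at the mean of 2. The orange and purple Cpt2-null points lie below the others at 7 genes, and at Onecut1 the WT points lie above all the rest.

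Few H3K4me1 folds differed past the threshold. Of the 66 intervals called in all 8 libraries, 0 passed in limma for Ppara (12 at an unadjusted p under 0.05), 0 for Cpt2 (7) and 0 for the interaction (3). Of all 19526 tested intervals 0.0461% were higher and 0.0819% lower for Ppara and 0.0% passed for the others. Such an unadjusted p was found at 2721 of all 19526 for Ppara, 1916 for Cpt2 and 566 for the interaction. For DKO against WT 1 was lower and 0 higher, where 0.0358% of all were lower and 0.0973% higher. This was an interval in the Foxa3 gene body (chromosome 7, 19018052 to 19019104), with folds of 12.3 and 11 (WT), 4.48 and 5.40 (Cpt2 KO), 8.50 and 6.0 (Ppara KO) and 3.68 and 3.0 (DKO). It fell by 1.81 (log2, SE 0.29, limma adjusted p = 0.0473), with both WT livers the highest and both DKO livers the lowest. The call was lost in 8 of 15 alternatives, among them the fits without either WT or either DKO liver. The H3K27ac interval over the same stretch of Foxa3, given above, did not pass for DKO against WT, with a difference of −0.23 (SE 0.28, adjusted p = 0.584).

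Next in order for DKO against WT came H3K4me1 beside Cebpa (35122060 to 35125042) and over the Foxa2 gene (148042965 to 148045104), and neither passed. Beside Cebpa folds were 13.4 and 11 (WT), 4.85 and 6.70 (Cpt2 KO), 11.4 and 7.56 (Ppara KO) and 5.55 and 3.0 (DKO), a difference of −1.57 (SE 0.34, limma adjusted p = 0.0677). Over Foxa2 they were 15.8 and 17.9 (WT), 9.94 and 14.2 (Cpt2 KO), 14.1 and 8.33 (Ppara KO) and 7.17 and 8.12 (DKO), a difference of −1.14 (SE 0.29, adjusted p = 0.0876). Without Cpt2 KO replicate 1 the differences were −1.57 at Cebpa and −1.13 at Foxa2. In fits without 1 Cpt2 KO liver, H3K4me1 calls for DKO against WT rose over all intervals, not near these genes alone. H3K4me1 calls were made in all Cpt2-intact and no Cpt2-null livers at 2 of 185 intervals, 1 at Prox1 and 1 at Nr5a2 (0.143% of all). At 8 of 9 genes, all but Hnf4a, H3K4me1 covered fewer bases in DKO than in WT, where 40.1% of genes did. None was higher without overlap (23.7% of genes). The whole H3K4me1 lists were shorter too, at 38.8 and 46.0 Mb in DKO against 52.5 and 53.2 Mb in WT. These bases were not scaled by that length. No gene separated by Cpt2 (2.32% of genes lower, 1.37% higher) or by Ppara (4.09% lower, 3.31% higher).

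Where an H3K27ac interval called in all 8 libraries overlapped such an H3K4me1 interval (32 pairs), the differences of DKO from WT had the same sign at 24, with a Pearson correlation over intervals of 0.60. For Cpt2 the sign was the same at 20 and the correlation was 0.53, and for Ppara 21 and 0.35. The points share the same 8 libraries of each mark and several share a gene, and they describe these livers only.

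H3K9ac was compared between 1 WT and 1 Cpt2 KO library by position alone, with no test. Of the 147 intervals near these genes, 82 (55.8%) were called in both libraries, 53 (36.1%) in WT alone and 12 (8.16%) in Cpt2 KO alone, where 55.2%, 20.8% and 23.9% of all H3K9ac intervals were. The whole lists were alike in length, 37.5 Mb in WT and 37.4 Mb in Cpt2 KO. Nr5a2 had 24 intervals in WT and 10 in Cpt2 KO, all 10 of them shared, and its covered bases were 16585 and 7297. Prox1 had 22 and 10 intervals and 19269 and 12196 bases, Onecut1 10 and 8 intervals and 9369 and 4980 bases, and Hnf4a 35 and 27 intervals and 48369 and 39643 bases. Foxa2 and Cebpa had 11 intervals each in WT and 5 and 6 in Cpt2 KO. Foxa3 had 10 and 9 intervals and 23021 and 22140 bases. Foxa1 had 5 intervals in WT and 6 in Cpt2 KO, but fewer bases in Cpt2 KO (9241 and 7373). Cebpb had more of both in Cpt2 KO, with 7 and 13 intervals and 11515 and 14385 bases. A difference between these 2 libraries has no replicate behind it.

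Other liver factors had lower calls too, for Cpt2 near the share over all intervals. Near 12 genes of hepatocyte or liver bud factors (Hnf4g, Hhex, Gata4, Gata6, Tbx3, Onecut2, Cebpd, Cebpg, Nr0b2, Nr2f2, Nr2f6 and Rxra), 4 of 50 H3K27ac intervals were lower and 0 higher for Cpt2, with a median of −0.08 (log2). Of all tested intervals 7.38% were lower and 4.9% higher. For DKO against WT 11 were lower and 1 higher, with a median of −0.22, where 11.5% of all were lower and 8.62% higher. For Ppara 4 were lower and 1 higher, where 4.15% of all were lower and 3.19% higher. These 12 are part of a longer list, so their counts are not those of the whole list. Lower calls for DKO against WT are not particular to the 9 factors. For Cpt2 the count near the 12 genes does not settle this, being near the share over all intervals. Near the 6 hepatocyte marker genes, whose products are secreted or metabolic proteins, 0 of 14 intervals passed for Cpt2, with a median of −0.04. For DKO against WT 2 were higher and 0 lower, with a median of 0.13. For Ppara 1 was higher and 0 lower, with a median of 0.27. The shares over all intervals are those given above. The sum of covered bases near these genes was lower in Cpt2-null livers. Singly, Ttr, Apoa1 and Fgb were lower without overlap, while Alb, Apob and Cps1 overlapped. Lineage factors of other tissues had little H3K27ac: of 10 genes (Myod1, Neurod1, Pax6, Olig2, Sox10, Nkx2-5, Pdx1, Cdx2, Tbx21 and Pou5f1), 4 had any interval and 1 had an interval called in all 8 libraries. That interval passed as lower for Cpt2, with a difference of −1.02. Differences between these lists were not tested.

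The genes whose strongest H3K27ac interval followed each factor most closely over the 8 libraries, by Pearson correlation among 9323 genes, were Rhbdd1 for Hnf4a (0.93), Slc36a1 for Foxa1 (0.95), 3110040M04Rik for Foxa2 (0.97), Rsbn1 for Foxa3 (0.95), Hectd3 for Cebpa (0.98), Actn1 for Cebpb (0.97), Ext1 for Onecut1 (0.98), Akap1 for Prox1 (0.98) and Zfp592 for Nr5a2 (0.99). These are the highest of many correlations over 8 livers of 4 genotypes, and none of the 9 factors was the closest match of another.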

How the data were processed

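The authors deposited 1 peak list per library for H3K27ac and H3K4me1 (16 libraries) and, per mark, a list of consensus intervals; BWA, MACS2 2.1.0 and mm10 are named in the submitters' processing notes. The peak caller's threshold and the handling of duplicate reads are not given in the sources used here. The deposited fold is a ratio of ChIP over input at the summit of a peak, and the deposited −log10 q-value of each peak was used only for a stricter alternative. In 1 library, H3K27ac Ppara KO replicate 2, the peak names hold a different word where the rest hold mm10, and mm10 was assumed for it. H3K9ac lists gave positions only, and the 2 pooled inputs were not analysed here.

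The value of an interval was the highest fold of peaks overlapping it by at least 1 base. Log2 folds of intervals called in all 8 libraries were centred on each library's median and fitted in limma 3.58.1 (R 4.3.3, lmFit, eBayes with trend) with 4 genotype means. Contrasts were Ppara-null minus Ppara-intact, Cpt2-null minus Cpt2-intact, DKO minus WT and the interaction. P-values were adjusted by Benjamini-Hochberg over all intervals, with a threshold of 0.05, and measure the spread between 2 livers a genotype. On simulated data with 200 of 18281 H3K27ac intervals changed by 1 (log2) for Cpt2, 54.5% were recovered with 2 false calls. The simulated noise was independent between intervals and libraries. These rates need not hold where libraries of a Cpt2 state share other differences, such as peak width. Named intervals were the strongest of each gene and mark, those past the threshold and those called in 1 state alone. The members and lists were chosen with earlier results of these data known. Alternatives were 2 other scalings, the mean fold, a stricter q, 50% overlap, calls in at least 6 of 8 libraries, peak width as a covariate, a replicate block, a 5 kb distance and leaving out each library. Part of the list of other liver factors is not reported here.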

Additional observations from a re-analysis of the deposited data

How the results depend on the processing

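Counts of intervals past the threshold moved by over 1.5 times as follows. With smallest peak width as a covariate they were 0 for Cpt2, 0 for DKO against WT and 1 for Ppara in H3K27ac and 0 for DKO against WT in H3K4me1. In that fit 0 of all tested intervals of either mark passed for Cpt2 or for DKO against WT. Without centring they were 5 for Cpt2 and 1 for Ppara in H3K27ac, and within 5 kb 1 for Ppara. In fits without 1 library the remaining liver of that genotype is assumed to vary like the others; H3K27ac counts ranged from 1 to 7 for Cpt2, 3 to 11 for DKO against WT and 0 to 3 for Ppara (0 without Cpt2 KO replicate 2, 3 without DKO replicate 1). H3K4me1 counts ranged from 0 to 5 for DKO against WT and 0 to 2 for each of Cpt2 and Ppara. In fits without 1 Cpt2 KO liver, H3K4me1 calls for DKO against WT rose over all intervals as well. The single H3K4me1 call was 0 with the mean fold, with −log10 q of at least 10, with calls in at least 6 of 8 libraries and with the replicate block. Same-numbered livers did not deviate together in H3K27ac (correlations of −0.065 to 0.17). The block left the H3K27ac counts at 2 for Ppara, 10 for Cpt2 and 12 for DKO against WT. In H3K4me1 the correlations were −0.49 to 0.10. At the lowest, between Cpt2 KO and Ppara KO, livers of opposite number deviated together, which a block by number cannot remove. H3K4me1 peaks covered 41.4 Mb in Cpt2 KO replicate 1 and 42.7 Mb in Ppara KO replicate 2. They covered 53.5 Mb in Cpt2 KO replicate 2 and 53.3 Mb in Ppara KO replicate 1. With −log10 q of at least 10, H3K4me1 intervals separated by Cpt2 numbered 1 in place of 2 and by Ppara 3 in place of 1. Within 5 kb the Cpt2 KO H3K9ac library held 61 intervals in place of 94. Signs turned in 4 of 395 alternative values for single intervals: with the width covariate at Hnf4a 163556558 (0.20) and Cebpa 35125953 (0.53) for Cpt2, and with the mean fold at Foxa1 57536131 for Cpt2 (0.35) and DKO against WT (0.24). Of the others 246 passed and 145 did not, and the causes were not tested. Depth in reads is unknown, so a missing call does not show that a mark is absent.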

Other observations

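At the limit of the 20 kb rule, the last H3K27ac interval inside lay 19831 bases beyond Onecut1 (74908987 to 74909971) and the first outside 21280.5 bases beyond it (74910446 to 74911411). The outer one was called in WT replicate 1 with a fold of 8.68, in both Cpt2 KO livers with 5.89 and 4.56 and in Ppara KO replicate 1 with 3.40.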
